A study of Homo sapiens with 6 samples.

Results

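The immunoproteasome and major histocompatibility complex (MHC) class I genes described here are PSMB8, PSMB9, PSMB10, PSME1, PSME2, TAP1, HLA-B, HLA-C and B2M, 9 of the 20030 genes in the deposited count table. They were selected on the comparison described below, because PSMB9, PSME1 and PSMB8 had the lowest fold changes among the proteasome genes, so their own fold changes are given as a description and without a test. The libraries came from HepG2, an established human hepatoma line. HepG2 cells stably carrying a control shRNA (sh-ctrl, 3 libraries) were compared with HepG2 cells stably carrying an shRNA against the mitotic kinesin KIF11 (sh-KIF11, 3 libraries). Both lines were made with lentiviral pLKO.1 vectors, selected with puromycin and kept in DMEM, so sh-ctrl cells also carry a vector and a hairpin. The study's list of oligonucleotides holds 1 hairpin against KIF11, so effects of the KIF11 loss and other effects of that hairpin cannot be told apart, and the labels do not say whether the 3 libraries of a group came from separate cultures. The p-values below therefore measure the spread between these libraries, which may be technical.

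Proteasomes cut cytosolic proteins into peptides. In the immunoproteasome, which interferons induce and which is abundant in leukocytes, the catalytic subunits PSMB9 (beta1i), PSMB8 (beta5i) and PSMB10 (beta2i) replace PSMB6, PSMB5 and PSMB7, and the PA28 ring of PSME1 and PSME2 caps the core. The TAP1-TAP2 transporter carries the peptides into the endoplasmic reticulum, where they are loaded onto a class I heavy chain such as HLA-B or HLA-C together with the shared light chain B2M, and the complex displays them to CD8+ T cells.

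The promoters are shown first because regulation by interferon and NF-kappaB is the best known shared property of these genes. The sequences are from RefSeq, build GRCh38.p14, written 5' to 3' on the strand of the gene and ending at the last base before the annotated start. Capitals mark matches to an interferon-stimulated response element pattern (GAAANNGAAA) or to the kappaB consensus, both searched on either strand in the 250 bases before each start. TAP1 lies at chr6:32853705-32853854 (minus strand), B2M at chr15:44711367-44711516 (plus), PSMB10 at chr16:67936851-67936910 (minus), PSME2 at chr14:24146611-24146670 (minus), HLA-B at chr6:31357180-31357379 (minus), HLA-C at chr6:31272093-31272292 (minus) and PSMB9 at chr6:32854042-32854191 (plus).
TAP1: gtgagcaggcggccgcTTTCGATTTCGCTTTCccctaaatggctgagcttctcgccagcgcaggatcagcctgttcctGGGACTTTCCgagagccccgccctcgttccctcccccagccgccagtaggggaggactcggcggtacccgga
B2M: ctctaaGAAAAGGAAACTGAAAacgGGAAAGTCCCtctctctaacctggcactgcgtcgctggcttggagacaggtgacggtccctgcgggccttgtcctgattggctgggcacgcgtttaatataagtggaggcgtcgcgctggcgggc
PSMB10: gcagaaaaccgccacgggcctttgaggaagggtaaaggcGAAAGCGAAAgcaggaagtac
PSME2: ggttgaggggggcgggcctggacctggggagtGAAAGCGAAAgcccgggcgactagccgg
HLA-B: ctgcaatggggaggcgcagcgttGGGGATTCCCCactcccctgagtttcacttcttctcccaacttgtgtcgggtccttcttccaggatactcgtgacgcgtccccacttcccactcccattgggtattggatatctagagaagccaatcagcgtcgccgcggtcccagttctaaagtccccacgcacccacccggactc
HLA-C: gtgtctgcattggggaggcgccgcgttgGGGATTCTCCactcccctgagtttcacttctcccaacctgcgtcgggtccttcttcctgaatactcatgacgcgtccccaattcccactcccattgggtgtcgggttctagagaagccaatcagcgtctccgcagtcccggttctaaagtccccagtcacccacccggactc
PSMB9: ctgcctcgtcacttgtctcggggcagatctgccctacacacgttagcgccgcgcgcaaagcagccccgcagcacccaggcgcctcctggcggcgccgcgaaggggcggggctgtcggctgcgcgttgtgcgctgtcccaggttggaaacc

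The GAAANNGAAA pattern was present before 4 of the 9 genes, PSMB10, PSME2, TAP1 and B2M, and in 3.02% of all 35116 promoter windows of this length. PSMB10 and PSME2 carried the same 10 letters, as did TAP2, which is not among the 9 genes. TAP1 and B2M each held a pair of overlapping matches. The kappaB consensus was found before TAP1, HLA-B, HLA-C and B2M, and in 9.96% of all windows. In B2M and TAP1 it lay downstream of the response element pattern. An interferon-gamma activated site pattern (TTCNNNGAA), searched in the same windows, occurred in 2 of the 9 genes, PSMB8 and TAP1, each at a second annotated start, and in 6.57% of all windows. The CCAAT box was present before 5 of the 9 genes and in 32.0% of all windows. Of the other 20S subunit genes with a window, 2 of 9 held the GAAANNGAAA pattern and 1 the kappaB consensus, against 0 of the 20 19S subunit genes for both. These are matches of letters and were not tested for binding in these cells.

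In the genome the genes fall into 5 places. PSMB8 (chr6:32840717-32844679, minus strand), TAP1 (chr6:32845209-32853704, minus) and PSMB9 (chr6:32854192-32859851, plus) sit with TAP2 in a span of 38021 bases of the MHC region. HLA-C (chr6:31268749-31272092, minus) and HLA-B (chr6:31353875-31357179, minus) lie in the same region, 81782 bases apart. TAP1 and PSMB9 are transcribed away from each other from starts 488 bases apart. The response element pattern of TAP1 therefore also lies 354 to 369 bases before PSMB9, outside the PSMB9 window printed above. PSME1 (chr14:24136194-24138962, plus) and PSME2 (chr14:24143365-24146610, minus) point towards each other across a gap of 4402 bases. PSMB10 (chr16:67934506-67936850, minus) and B2M (chr15:44711517-44718145, plus) stand alone. Within the MHC span the log2 fold changes, given in full below, ran from -1.52 for PSMB9 to -0.24 for TAP1, the gene that shares its promoter region.

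**Figure D1:**
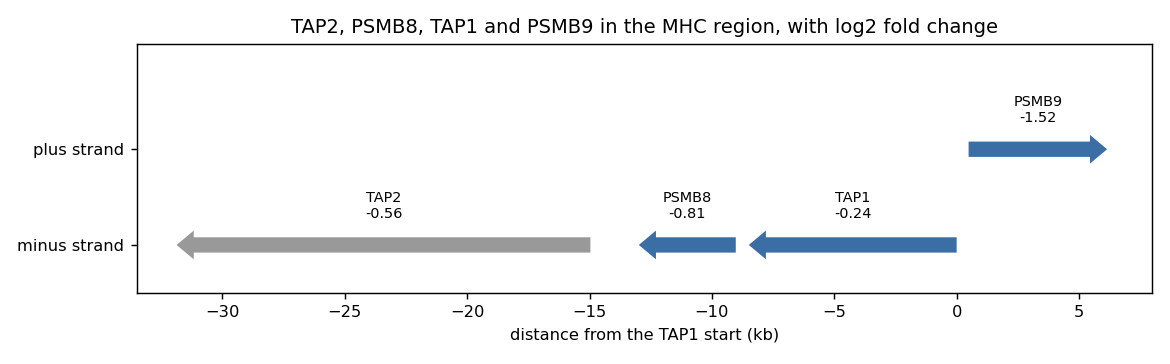
Position of TAP2, PSMB8, TAP1 and PSMB9 relative to the TAP1 start, in kb, with strand on the vertical axis and the log2 fold change of sh-KIF11 against sh-ctrl above each arrow. PSMB9 (-1.52) and TAP1 (-0.24) start 488 bases apart and point in opposite directions. TAP2 is drawn in grey because it is not among the 9 genes.

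Library totals were 18167773 to 19583282 counts, and 12369 genes passed the low-count filter, the 9 genes among them. For KIF11 itself the sh-ctrl counts were 1976, 2088 and 2039 and the sh-KIF11 counts 1448, 1478 and 1240, with a log2 fold change of -0.75 (SE 0.0573, adjusted p = 4.22e-15, edgeR quasi-likelihood test), so the knockdown was partial at the RNA level. The hepatocyte genes ALB and AFP had at least 22974 counts in every library, which fits the label of a hepatoma line, but the summed level of 10 hepatoma markers went from 24852 to 26581 CPM in sh-ctrl down to 8715 to 9207 CPM in sh-KIF11. CPM here is the count scaled to library size with TMM factors, which were 0.922 to 0.926 in sh-ctrl and 1.08 to 1.09 in sh-KIF11. The groups differed widely: 69.1% of tested genes were called at an adjusted p under 0.05, 34.7% lower and 34.4% higher in sh-KIF11, and in 35.8% every sh-KIF11 library lay below every sh-ctrl library. All 9 genes were called lower and all 9 were without overlap in CPM. Because they were chosen on this contrast, nothing is read from those counts. Summed over the 9 genes, the level was 1003 to 1050 CPM in sh-ctrl and 719 to 731 CPM in sh-KIF11. In a bulk library, fewer cells that express a gene and less RNA per cell cannot be told apart.

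Of the catalytic immunosubunits, PSMB9 was the most reduced. Its counts were 132, 144 and 128 with sh-ctrl against 63, 59 and 39 with sh-KIF11, or 7.65 ± 0.295 CPM against 2.66 ± 0.605 CPM (SD, n = 3). The lowest sh-ctrl library was above the highest sh-KIF11 library by more than the spread of either group. The fitted log2 fold change was -1.52 (SE 0.172), which left 34.8% of the control level, and 1.06% of all tested genes had a lower value. PSMB9 was also the least abundant of the 9 genes, its estimate had the largest SE, and it moved between -1.66 and -1.35 as single libraries were left out. PSMB8 counts were 651, 681 and 581 with sh-ctrl against 432, 425 and 397 with sh-KIF11. Its level went from 36.2 ± 1.67 CPM to 20.7 ± 0.722 CPM, a log2 fold change of -0.81 (SE 0.0773) or 57.2% of control. PSMB10 was counted 243, 253 and 235 times with sh-ctrl against 194, 175 and 177 times with sh-KIF11. That is 13.9 ± 0.206 CPM against 9.03 ± 0.609 CPM, a log2 fold change of -0.62 (SE 0.107) or 65.2% of control. For none of the 3 immunosubunits did a sh-KIF11 library reach the sh-ctrl range.

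The PA28 activator genes were far more abundant. PSME1 (PA28 alpha) counts were 3693, 3675 and 3237 with sh-ctrl against 2153, 2235 and 2190 with sh-KIF11, or 201 ± 8.01 CPM against 109 ± 1.99 CPM, and its log2 fold change was -0.88 (SE 0.0507), 54.2% of control. PSME2 (PA28 beta) counts were 3243, 3268 and 3078 against 2442, 2468 and 2428, or 182 ± 0.650 CPM against 121 ± 1.96 CPM. Its log2 fold change was -0.58 (SE 0.0493), 66.8% of control. The proteins assemble into 1 ring, yet the transcripts were not reduced to the same degree. On the length-scaled FPKM values the PSME1 to PSME2 ratio was 1.26, 1.16 and 1.16 with sh-ctrl. With sh-KIF11 it was 0.941, 1.01 and 1.04, with no overlap between the groups. PSME1 was among the genes picked for the lowest fold changes, so the choice favoured this difference, which carries no test.

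TAP1, the transporter subunit, changed little. The counts were 1180, 1074 and 1013 with sh-ctrl against 1047, 1064 and 1059 with sh-KIF11, or 61.9 ± 3.70 CPM against 52.4 ± 1.17 CPM. The log2 fold change was -0.24 (SE 0.0632), 84.7% of control. B2M, the light chain, was the most abundant of the 9 genes, with counts of 5615, 5996 and 6701 for sh-ctrl against 5994, 6101 and 5834 for sh-KIF11. This gave 348 ± 43.3 CPM against 296 ± 2.07 CPM and a log2 fold change of -0.23 (SE 0.0566), 85.2% of control. The third sh-ctrl library stood highest for B2M at 397 CPM, against 315 and 332 CPM in the others, and without it the log2 fold change was -0.13.

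The values of TAP1 and B2M rest on the scaling. With library totals in place of TMM the log2 fold changes were -0.01 for TAP1, -0.00 for B2M and -0.14 for HLA-B, while the median of all tested genes moved from 0.00 to 0.24. On the deposited FPKM values TAP1 was 17.0, 14.9 and 15.9 for sh-ctrl against 15.4, 15.3 and 16.6 for sh-KIF11, and the ranges overlapped. B2M overlapped likewise, with 233, 246 and 279 FPKM for sh-ctrl against 239, 236 and 245 FPKM for sh-KIF11. With library totals 6 of the 9 genes were called lower, without TAP1, HLA-B and B2M. Of all tested genes 19.2% were called lower and 53.5% higher. The 9 genes were chosen on this contrast, so nothing is read from this count either. With library totals PSMB9 was at -1.29, PSME1 at -0.65, PSMB8 at -0.57, HLA-C at -0.40, PSMB10 at -0.39 and PSME2 at -0.35. Each of the 9 was below the median of all genes under both scalings. A change of scaling moves all genes by nearly the same amount, so this agreement was fixed in advance and is no check on either scaling.

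Both heavy chain genes were reduced, HLA-C by more than HLA-B. HLA-C counts were 2739, 2853 and 2357 with sh-ctrl against 1999, 1976 and 1911 with sh-KIF11, or 150 ± 9.61 CPM against 97.3 ± 2.12 CPM, with a log2 fold change of -0.63 (SE 0.0533) and 64.7% of control. HLA-B counts were 388, 449 and 389 against 352, 382 and 352, or 23.2 ± 1.57 CPM against 17.9 ± 0.464 CPM. Its log2 fold change was -0.37 (SE 0.0847), 77.3% of control. HLA-B and HLA-C are close in sequence to each other and to other class I genes and vary between alleles, so reads can be assigned to the wrong one and the split among them is uncertain. The GENCODE annotation places an antisense transcript, PSMB8-AS1, over parts of PSMB8 and TAP1. It also has PSMB9 and TAP1 overlapping on opposite strands, unlike the RefSeq starts given above. Where genes overlap, reads are told apart only by strand. The kit was stranded, and the strand setting of the counting is not given in the sources used here.

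Set beside the promoters printed above, the 4 genes with a GAAANNGAAA match had log2 fold changes of -0.62 (PSMB10), -0.58 (PSME2), -0.24 (TAP1) and -0.23 (B2M). PSMB9, PSME1 and PSMB8, which fell furthest, had no match to this pattern in their own windows, and neither had HLA-C or HLA-B. Only exact matches were counted, so a response element with other letters would be missed. The TAP1 matches also lie 354 to 369 bases before PSMB9, beyond its window. The genes with a kappaB match, TAP1, HLA-B, HLA-C and B2M, lay between -0.63 and -0.23.

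**Figure D2:**
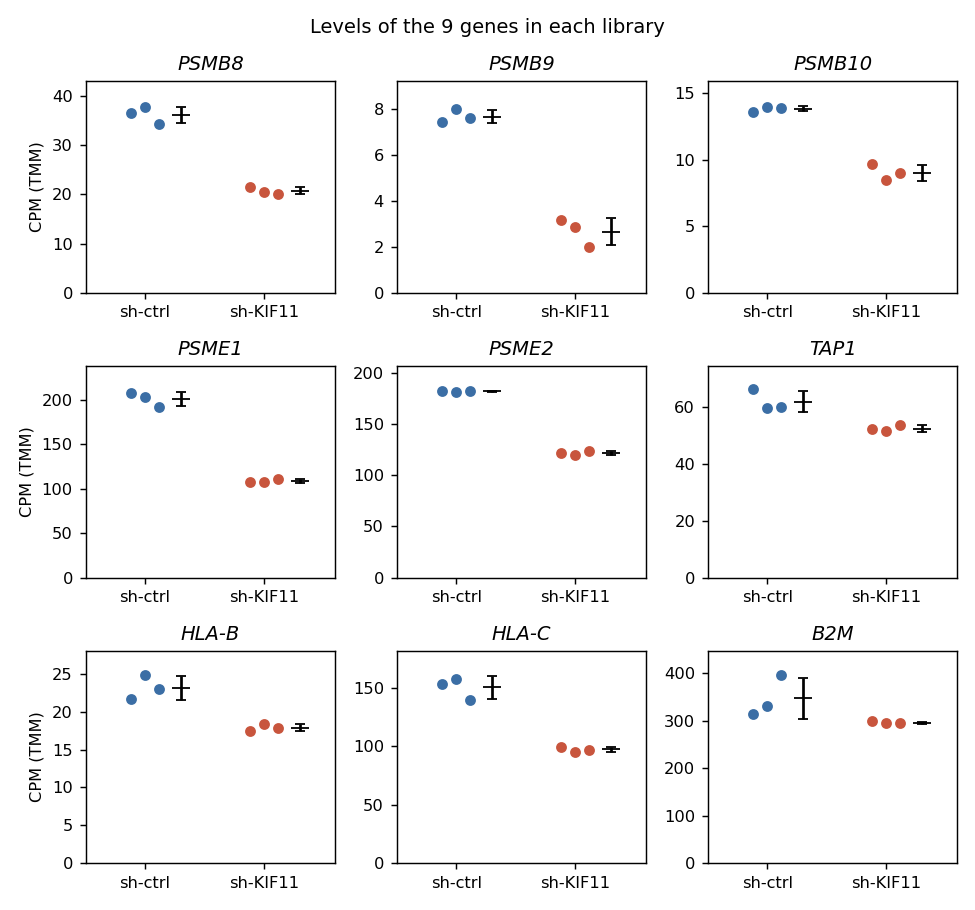
Level of each of the 9 genes in CPM after TMM scaling (vertical axis, from 0) in the sh-ctrl and sh-KIF11 libraries. Points are single libraries and bars the mean ± SD of 3 libraries. In each panel the sh-KIF11 points lie below the sh-ctrl points, from a wide gap for PSMB9 (7.65 against 2.66 CPM) to a narrow gap for B2M (348 against 296 CPM).

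Levels between genes were compared on FPKM, which accounts for length. In sh-ctrl the order was B2M (253 ± 24.0 FPKM), PSME1 (97.3 ± 3.54), PSME2 (81.7 ± 1.70), HLA-C (57.8 ± 3.78), TAP1 (15.9 ± 1.05), PSMB8 (15.3 ± 1.10), HLA-B (12.2 ± 0.706), PSMB10 (8.74 ± 0.524) and PSMB9 (7.12 ± 0.240). TAP1 and PSMB8 did not differ beyond their spread, and the other neighbours did not overlap. In sh-KIF11 the FPKM means of PSME1 and PSME2 were 58.7 ± 2.45 and 59.0 ± 0.625, so these neighbours no longer differed beyond their spread. TAP1 at 15.8 ± 0.716 FPKM and PSMB8 at 9.86 ± 0.361 FPKM had moved apart.

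Each immunosubunit competes with a constitutive partner for the same place in the proteasome, and the partner genes were also lower in sh-KIF11. The log2 fold change was -0.68 for PSMB6 (SE 0.0514, adjusted p = 3.13e-15), -0.51 for PSMB5 (SE 0.0480, adjusted p = 1.86e-12) and -0.43 for PSMB7 (SE 0.0491, adjusted p = 4.41e-10). In each pair the immunosubunit had the lower fold change. PSMB9 made up 4.91%, 5.09% and 4.68% of the PSMB9 plus PSMB6 FPKM with sh-ctrl against 3.03%, 2.92% and 2.16% with sh-KIF11. PSMB8 made up 8.90%, 9.45% and 8.35% of the PSMB8 plus PSMB5 FPKM with sh-ctrl against 7.57%, 7.27% and 7.04% with sh-KIF11. Neither of these shares overlapped between the groups. PSMB10 made up 5.78%, 5.35% and 5.90% of its pair with PSMB7 for sh-ctrl against 5.06%, 4.79% and 5.54% for sh-KIF11, and here the ranges overlapped. With CPM divided by the gene length that the tables imply, the PSMB10 shares were 5.73% to 5.93% and 4.82% to 5.37% and did not overlap. In both groups the constitutive subunit supplied most of the transcript of each pair. The shares come from the contrast that chose the genes and carry no test.

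**Figure D3:**
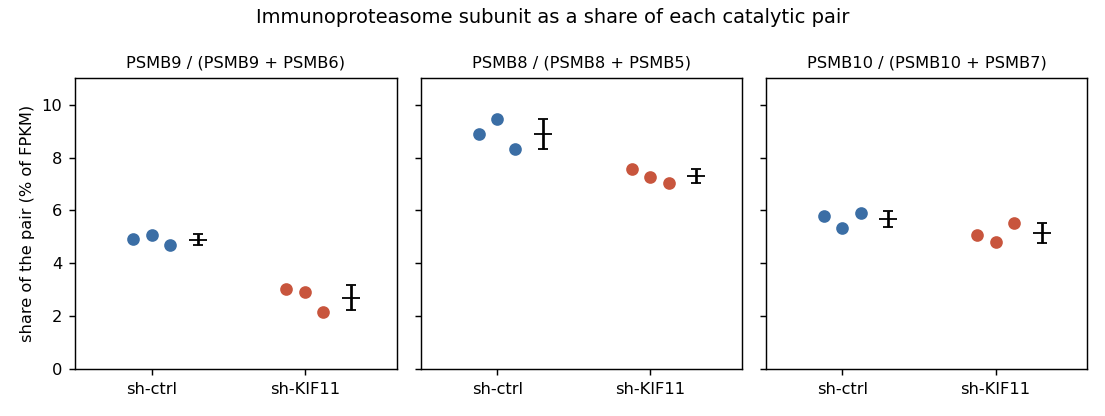
Share of each catalytic pair that the immunoproteasome subunit supplied, as a percent of the summed FPKM of the pair (vertical axis, from 0). Points are single libraries and bars the mean ± SD of 3 libraries. The PSMB9 share was 4.89 ± 0.207% in sh-ctrl and 2.70 ± 0.470% in sh-KIF11, the PSMB8 share 8.90 ± 0.554% and 7.29 ± 0.264%, and the PSMB10 share 5.68 ± 0.289% and 5.13 ± 0.378%.

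The same division was made for the transporter. TAP1 over TAP2 on FPKM was 1.71, 1.63 and 1.94 with sh-ctrl against 2.19, 2.18 and 2.35 with sh-KIF11, without overlap. This ratio carries no test either. TAP2, the other transporter subunit, had a log2 fold change of -0.56 (SE 0.0659, adjusted p = 8.52e-10).

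Among the 48 proteasome genes tested, PSMB9, PSME1 and PSMB8 held the first 3 places from the lowest log2 fold change, which is how they were chosen. PSMB8 at -0.81 was the last inside and PSMB3, a constitutive beta subunit, at -0.71 the first outside. PSMB10 and PSME2 came in places 8 and 9. Of the 43 proteasome genes outside the 9, 32 fell (74.4%, against 34.7% of all tested genes) and none was called higher, with a median log2 fold change of -0.26 against 0.00 for all tested genes. With library totals 17 (39.5%) were called lower and 10 (23.3%) higher, against 19.2% and 53.5% of all tested genes. Of those 10, 8 were 19S subunits. By component, 10 of 11 other 20S subunits fell (7 lower and 1 higher with library totals), led by PSMB3 (-0.71, adjusted p = 4.31e-16), PSMB4 (-0.53, adjusted p = 1.49e-12) and PSMA6 (-0.46, adjusted p = 6.84e-11). In the 19S cap that recognises ubiquitinated proteins, 12 of 21 were called lower and none higher with TMM, against 6 lower and 8 higher with library totals, with PSMC3 at -0.65 (adjusted p = 3.05e-15), PSMD3 at -0.50 (adjusted p = 3.98e-11) and PSMD11 at -0.45 (adjusted p = 1.83e-10). Of 8 assembly factors and other activators 7 fell, against 1 lower and 1 higher with library totals. PSMG1, an assembly chaperone, had -0.70 (adjusted p = 4.60e-13). PSMG3 (-0.24, adjusted p = 0.00984) and PSMG4 (-0.20, adjusted p = 0.0321) were at or just above 0 under FPKM and library totals, respectively, and lost their calls in 5 and 9 of 15 alternatives.

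**Figure D4:**
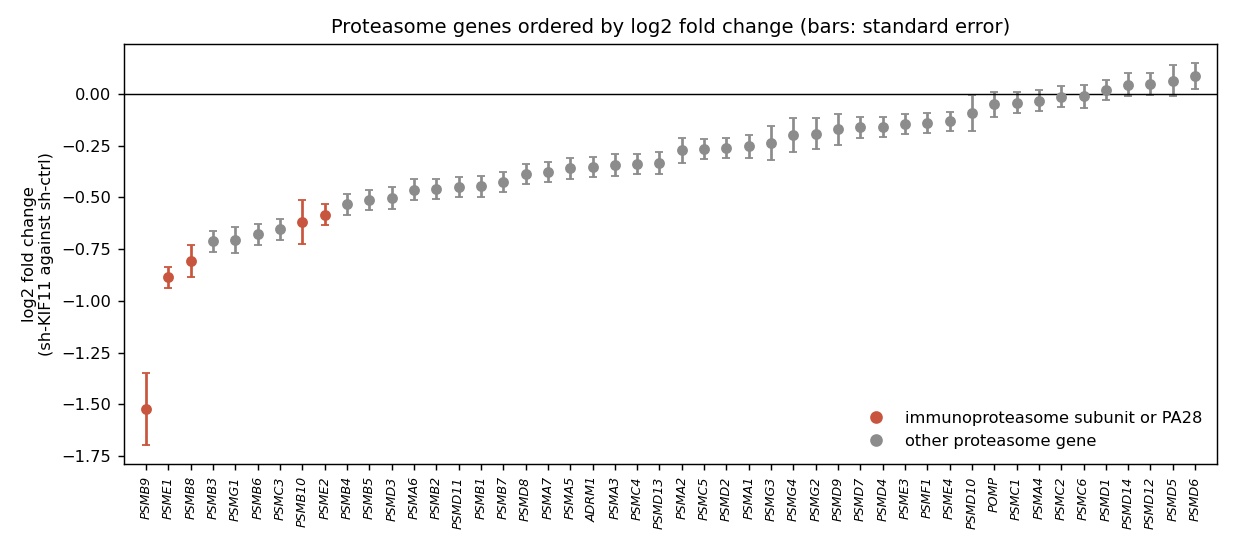
Log2 fold change of sh-KIF11 against sh-ctrl (vertical axis) for the 48 proteasome genes, ordered from lowest to highest, with the SE as bars. The 5 immunoproteasome and PA28 genes are in red. PSMB9, PSME1 and PSMB8 stand at the left end, and PSMB10 and PSME2 sit among constitutive genes.

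Downstream of the proteasome, 17 genes of peptide supply and loading were tested, of which 13 (76.5%) were called lower and 1 (5.88%) higher, against 34.7% and 34.4% of all tested genes. With library totals 8 (47.1%) were lower and 3 (17.6%) higher, against 19.2% and 53.5%. Calreticulin (CALR, -0.77, adjusted p = 4.72e-18), calnexin (CANX, -0.75, adjusted p = 2.25e-17) and PDIA3 (-0.73, adjusted p = 2.23e-17), all chaperones of heavy chain folding that serve other glycoproteins too, fell most. Tapasin (TAPBP), which bridges TAP and the heavy chain, had -0.49 (SE 0.0569, adjusted p = 5.73e-10). The cytosolic peptidase TPP2 was the gene that rose (0.29, adjusted p = 1.71e-05). The changes of CALR, CANX and PDIA3 were thus further from 0 than those of TAP1, B2M, HLA-B and HLA-C, and close to that of PSMB8.

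Of the other class I heavy chain genes, 8 of 13 were tested, 6 fell and 1 rose, or 6 and 2 with library totals. The share called lower was 75.0% of these 8 under both scalings. Of all tested genes, 34.7% were called lower and 34.4% higher with TMM, and 19.2% and 53.5% with library totals. HLA-E, a ligand of NK cell receptors, had -0.09 (SE 0.0516, adjusted p = 0.123) with TMM and 0.14 (adjusted p = 0.0132) with library totals. FCGRT, the neonatal Fc receptor chain that also pairs with B2M, had -1.27 (adjusted p = 3.83e-23), MICB, a stress ligand, -0.64 (adjusted p = 4.91e-09), and HLA-F -0.60 (adjusted p = 0.00184). MR1, which presents microbial metabolites, rose by 1.02 (adjusted p = 1.03e-14). FCGRT and MR1, which both pair with B2M, thus changed in opposite directions.

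The regulators of these genes did not share a direction with TMM. Of 29 tested, 8 (27.6%) were called higher, 9 (31.0%) lower and 12 neither, and with library totals 18 (62.1%) were called higher and 4 (13.8%) lower, against the 34.4% and 34.7%, and 53.5% and 19.2%, of all tested genes. Their median log2 fold change was 0.01 against 0.00 for all tested genes, and 0.24 for both with library totals. NLRC5, the class I transactivator, gave counts of 281, 283 and 233 with sh-ctrl against 354, 335 and 338 with sh-KIF11, which after scaling was a log2 fold change of 0.17 (SE 0.0933, adjusted p = 0.102). IRF1, a transcription factor of the interferon response, had 0.13 (SE 0.0991, adjusted p = 0.226). With library totals both were called higher, at 0.40 and 0.37, so neither was called lower under either scaling. A p that misses the threshold does not show equal levels. Of the receptor and kinase genes, JAK2 rose by 1.37 (SE 0.127, adjusted p = 1.38e-12) and IFNGR1, a chain of the interferon-gamma receptor, by 0.89 (SE 0.0556, adjusted p = 7.96e-18). RELB, an NF-kappaB subunit, rose by 0.54 (adjusted p = 3.13e-05). SOCS1, an inhibitor of JAK signalling, fell by 1.33 on the log2 scale (SE 0.109, adjusted p = 3.21e-14). RFXAP, part of the RFX complex on MHC promoters, had -0.74 (adjusted p = 0.000166) and USP18, a brake on the type I interferon receptor, -0.65 (adjusted p = 4.32e-07).

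**Figure D5:**
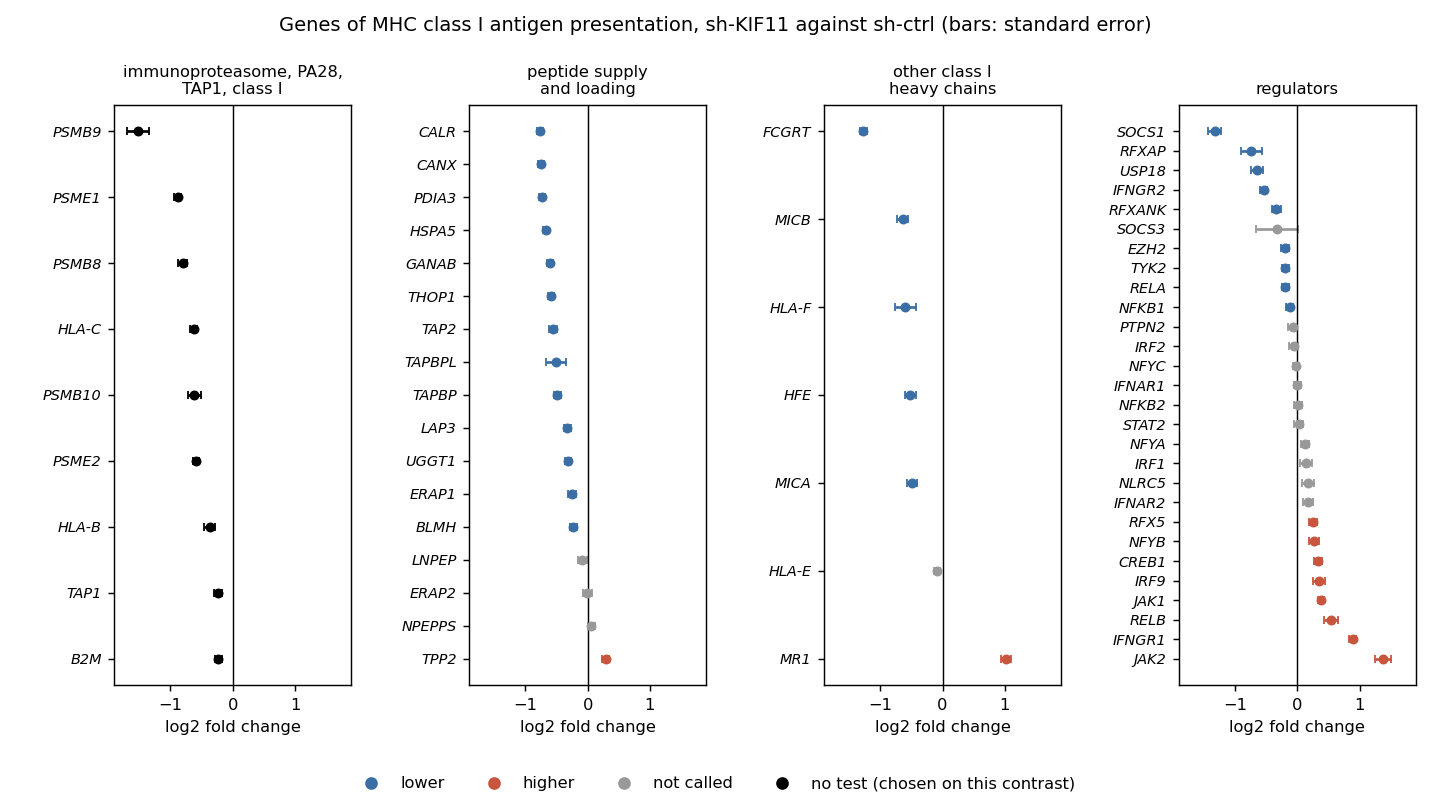
Log2 fold change of sh-KIF11 against sh-ctrl (horizontal axis) with the SE as bars, for the 9 genes (black, without a test) and for tested genes of peptide supply and loading, other class I heavy chains, and regulators. Blue points were called lower, red points higher and grey points were not called. The loading genes lie mostly left of 0, and the regulators spread from SOCS1 at -1.33 to JAK2 at 1.37.

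Other interferon response genes were not called more often than all genes with TMM. Of 50 listed, 36 were tested: with TMM 10 (27.8%) were called higher, 10 (27.8%) lower and 16 neither, against 34.4% and 34.7% of all tested genes. With library totals 19 (52.8%) were called higher and 7 (19.4%) lower, against 53.5% and 19.2%. The median was -0.02 with TMM. IFI6 (-1.38, adjusted p = 3.29e-13), IFI35 (-1.16, adjusted p = 1.09e-15) and the antiviral membrane protein IFITM3 (-0.89, adjusted p = 7.11e-19) fell most. The 3 with the highest fold changes were scarce in sh-ctrl. GBP3, a guanylate-binding protein, had counts of 4, 2 and 2 there against 26, 40 and 41 with sh-KIF11 (adjusted p = 8.15e-09). HERC5, an ISG15 ligase, had 2, 5 and 1 against 12, 12 and 15 (adjusted p = 0.00188), and IFI27 had 22, 15 and 9 against 51, 63 and 73 (adjusted p = 3.69e-07).

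Because the immunoproteasome is abundant in leukocytes, their markers were read in the same libraries. Of 13 leukocyte markers, 4 had no count in any library, and PTPRC (CD45), which defines leukocytes, had counts of 0, 1 and 0 in each group. The summed level of the list was 100 to 109 CPM in sh-ctrl and 55.9 to 59.2 CPM in sh-KIF11. Most of it was CD68, a lysosomal protein also made outside leukocytes, with 82.3 and 44.2 CPM (-0.90, adjusted p = 4.20e-16). CD14, a monocyte marker, was at 1.21 CPM in sh-ctrl and also fell (-1.78, adjusted p = 0.000186). Endothelial and stromal markers summed to 6.10 to 7.12 CPM in sh-ctrl and 6.09 to 7.03 CPM in sh-KIF11, with PDGFRB at -1.16 (adjusted p = 6.36e-05) and VWF at 1.01 (adjusted p = 0.000342). Of the 10 hepatoma markers, 9 were called lower both with TMM and with library totals. The shares of all tested genes called lower were 34.7% and 19.2%. The lowest values were those of TF (-2.28, adjusted p = 2.43e-33), APOA1 (-1.92, adjusted p = 1.02e-30) and SERPINA1 (-1.57, adjusted p = 9.26e-28). The part of these marker changes in the levels of the 9 genes was not tested.

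The genes whose log2 CPM followed that of PSMB9 most closely over the 6 libraries, among 9384 others with a mean of at least 10 CPM, were MRPL39 (Pearson r = 0.998), SLC37A4 (r = 0.998), UQCC3 (r = 0.997), FAM20A (r = 0.997) and SPON2 (r = 0.996). The points fall into the 2 groups, so these values mostly restate the difference between sh-ctrl and sh-KIF11. Of the 9384 genes, 1567 had an r above 0.95 with PSMB9. The 5 genes are a mitochondrial ribosomal protein, the glucose-6-phosphate transporter, a factor for respiratory complex assembly, a secretory pathway pseudokinase and a matrix protein, and none of them belongs to the lists above. Their log2 fold changes were -0.50, -0.48, -0.95, -1.73 and -1.26.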

How the data were processed

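HepG2 libraries were prepared with a stranded TruSeq mRNA kit and sequenced as 150 bp paired-end reads. The authors deposited counts per gene, without normalization, and FPKM values, which the authors had scaled by transcript length and depth. The submitters' processing notes list bcl2fastq 1.8.4, Trimmomatic, HISAT2 2.1.0, Cufflinks 2.2.1, HTSeq 0.9.1 and DESeq with GRCh38/hg38. Groups came from the labels. The tables name the knockdown columns only shRNA. They were read as sh-KIF11, the sole other hairpin in the labels.

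The count analysis used edgeR 4.0.16 in R 4.3.3 (filterByExpr, TMM, quasi-likelihood test with group as the only term, Benjamini-Hochberg adjustment over 12369 genes, threshold 0.05). SE is the absolute log2 fold change divided by the square root of F, and a prior count of 2 was added for log2 CPM. Alternatives used limma 3.58.1 on log2(FPKM + 1) and log2(FPKM + 0.1) and DESeq2 1.42.0. The methods were tested on simulated data with 200 changed genes, as many higher as lower, and all other genes unchanged. In the real libraries 69.1% of tested genes were called, so that simulation does not check the scaling. Depth was 18167773 to 19583282 counts per library, which limits precision for PSMB9 (39 to 144 counts) most. Promoter windows were read in Python 3.11.15 from RefSeq (GRCh38.p14). All 9 genes matched by symbol, and PSMB6 and PSMB7 had no window.

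The 9 genes and the gene lists were chosen with earlier results of these data known. Also named were the 3 tested genes of each list with the highest and the 3 with the lowest log2 fold change among those called, the catalytic partners, KIF11, TAP2, TAPBP, HLA-E, NLRC5, IRF1, and the 5 genes most like PSMB9. ALB, AFP and PTPRC were named as defining markers. A few genes within the rule are left out of the text and the plots.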

Additional observations from a re-analysis of the deposited data

How the results depend on the processing

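Each of the 9 genes kept a log2 fold change below 0 in all 15 alternatives, that is in 135 of 135 values. The alternatives use the same libraries on which the genes were chosen, so these signs are a description and no separate support. With library totals TAP1 and B2M came to -0.01 and -0.00. Of the 52 other genes named, 49 were called, against 69.1% of all tested genes. Most of them were named because they were called with large fold changes or followed PSMB9. Their calls are therefore no check on the processing. Of the 49, 47 kept their call and direction in every alternative. The exceptions were PSMG3, at 0.0056 with limma on log2(FPKM + 1) and 0.0061 on log2(FPKM + 0.1), and PSMG4, at 0.032 with library totals. PSMG3 lost its call in 5 and PSMG4 in 9 of the 15 alternatives, single libraries left out among them (PSMG3 without sh-ctrl replicate 1, PSMG4 without sh-ctrl replicate 2 or sh-KIF11 replicate 2 or 3). HLA-E, which was not called, turned to 0.14 with library totals, 0.097 on log2(FPKM + 1) and 0.10 on log2(FPKM + 0.1). The median of all tested genes moved as well, from 0.00 with TMM to 0.24, 0.12 and 0.17 in these settings. Whether anything beyond the scaling took part was not tested. The count of genes called was 8548. It ranged from 7975 to 8749 as single libraries were left out and was 8607 with the replicate number as a block. Same-numbered libraries did not deviate together (r = 0.030, -0.018 and -0.0025), so the numbers were not used as pairs. The split of calls depends on scaling: 49.8% were higher with TMM, 73.6% with library totals, 58.5% with upper-quartile factors and 68.5% with limma on log2(FPKM + 1). The constitutive proteasome genes called lower or higher numbered 26 to 32 of 43 over all alternatives, but their directions changed. With TMM 32 were lower and none higher. With library totals 17 were lower and 10 higher, and with limma on log2(FPKM + 1) 19 were lower and 8 higher. With 3 libraries a group, the values describe these cell lines.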

Other observations

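MHC class II genes, which share the RFX and NF-Y factors with class I, were mostly absent from these cells. Of 12 listed, 3 had no count in any library and 3 were tested. CD74, the invariant chain, gave counts of 2578, 2625 and 2163 with sh-ctrl against 1885, 1892 and 1921 with sh-KIF11 (log2 fold change -0.57, SE 0.0544, adjusted p = 3.71e-12), close to HLA-C and PSME2. HLA-DOA, a modulator of class II loading, gave counts of 2, 1 and 0 against 13, 38 and 28 (adjusted p = 1.10e-07).

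The KEGG terms of the deposited annotation, looked up after the data had been seen, were counted without the 9 genes. Both terms share genes with the lists above. The proteasome term has the same lowest and highest log2 fold change, -0.71 and 0.09, as the 43 proteasome genes above. It is thus no separate result. With TMM, 28 of 37 tested genes of the proteasome term (75.7%) were called lower and none higher, and of 33 tested genes of antigen processing and presentation 20 (60.6%) were called lower and 8 (24.2%) higher, against 34.7% and 34.4% of all tested genes. With library totals these were 17 lower and 9 higher, and 15 lower and 11 higher, against 19.2% and 53.5% of all tested genes.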
